A study of Mus musculus with 8 samples.

Results

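The solute carrier (Slc and Slco) genes of mouse colon tumours with and without miR-29ab1 in the intestinal epithelium were examined in 8 RNA-seq libraries. They were taken as the protein-coding genes of the authors' deposited table whose symbol begins with Slc and a digit or with Slco, leaving out the GDP-fucose transporter Slc35c1, and came to 27 of 1428 listed genes. WT tumours (4 libraries) came from wild-type C57BL/6N mice, and KO tumours (4 libraries) from C57BL/6N mice whose label, miR-29ab1Vilin-KO, names a deletion of miR-29ab1 in cells that use the villin promoter. Per the series text the tumours were induced with azoxymethane (AOM), which is carcinogenic in the colon, together with DSS (dextran sodium sulfate), which damages the colon lining. Age, sex and whether each library is a separate animal are not stated in the labels or that text, so the p-values rest on a spread between libraries that may be technical. Reads recovered over the listed genes numbered 1202677 to 1268646 in WT and 1316787 to 2180787 in KO, the most in KO replicate 4. These sums cover the listed genes only and are not the depth of a library. The recovered size factors, by which counts were divided, were 0.973 to 1.03 in WT and 0.933 to 1.12 in KO. That of KO replicate 4 was 1.02. No value of Mir29a or Mir29b-1 was analysed here, so the deletion has no check of its own.

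Every listed gene has an unadjusted p below 0.05 for KO against WT in the authors' deposited table, from DESeq2. The 27 genes were therefore already chosen for a difference between the groups, and each difference is given below as a description. Adding Slc35c1, 28 of the 389 protein-coding Slc and Slco symbols of RefSeq were listed (7.20%), beside 7.15% of the 19985 genes behind the authors' adjustment. The bases of these shares differ in kind: the first counts annotated protein-coding symbols whether or not they are expressed in the colon, and the second the genes that entered the adjustment, of any biotype. None of the 27 had an adjusted p below 0.05 in the authors' deposited table, beside 0.56% of listed genes, and their DESeq2 adjusted p-values ran from 0.43 to 0.708. All 27 have an unadjusted p below 0.05 there.

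Solute carriers are membrane proteins that move small molecules across the plasma membrane or the membranes of organelles, most of them along a gradient or coupled to sodium, protons or an exchanged solute. In the colon they take up short-chain fatty acids made by bacteria, vitamins, creatine, carnitine and ions, and their set changes as epithelial cells mature from the crypt to the surface. Carriers of the Slc25 family sit mainly in the inner mitochondrial membrane, and those of the Slc35 family mainly in the Golgi and endoplasmic reticulum. The tumours were sequenced as bulk tissue, so fewer cells of a type and less RNA per cell cannot be told apart.

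The deleted microRNAs and the sites they could bind are shown because loss of a microRNA can raise the transcripts it pairs with. The label's miR-29ab1 corresponds to Mir29a and Mir29b-1, which lie together on chromosome 6 in RefSeq GRCm38.p6, with the mature miR-29a-3p at chr6:31062673-31062694 and miR-29b-3p at chr6:31063025-31063047, minus strand. The same mature miR-29b-3p is also made from Mir29b-2 on chromosome 1, at chr1:195037091-195037113, beside Mir29c, which the label does not name. Mature sequences from RefSeq, written 5′ to 3′ with the seed (bases 2 to 8) in capitals, are as follows.
mmu-miR-29a-3p: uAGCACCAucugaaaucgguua
mmu-miR-29b-3p: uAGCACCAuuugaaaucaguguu
mmu-miR-29c-3p: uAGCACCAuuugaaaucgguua

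All 3 share the seed AGCACCA, whose match in a transcript is TGGTGCT. The match was searched on the sense strand of the longest 3′ untranslated region (UTR) per symbol in GENCODE M21, on GRCm38, which was found for all 27 genes. It was present in 4 of them (14.8%), beside 13% of 20966 annotated symbols. Among the 19 genes listed higher in KO, 3 carried it (15.8%), beside 19.0% of 605 listed protein-coding genes higher in KO. Of the 8 listed lower, 1 carried it (12.5%), beside 12.3% of 422 listed protein-coding genes lower in KO. These shares lie near their backgrounds but were not matched for UTR length, and a longer UTR has more room for a match. The median UTR was 1554 bases in the 27 genes and 954 in all annotated symbols. It was 1913 in the 19 higher and 834.5 in the 8 lower genes. Over listed protein-coding genes it was 1464 in those higher and 701.5 in those lower. The 4 sites, with the seed match in capitals and 10 bases on either side, are shown in transcript direction with the position of the 7 bases in GRCm38.
Slc5a8, chr10:88926675-88926681, plus strand: tacatgccttTGGTGCTagtatatgta
Slc22a5, chr11:53864667-53864673, minus strand: tatgttgccaTGGTGCTccgaaagcac
Slc35b4, chr6:34155310-34155316, minus strand: ccagggtggtTGGTGCTgcctgtggct
Slc7a5, chr8:121881534-121881540, minus strand: cagggattcaTGGTGCTgacccaggct

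The Slc5a8 site is the one of the 4 followed by an A, the base that extends the match to the stronger class of site. The first 3 genes were listed higher in KO and Slc7a5 lower. A match is a description of letters and does not show binding.

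Of the 27 genes, 19 were listed higher in KO and 8 lower, or 70.4% higher, beside 58.1% of all listed genes higher and 41.9% lower. By the authors' deposited table the 19 had a median log2 fold change of 0.64 and the 8 one of -0.55, beside 1.00 and -0.88 over all listed genes. One of the lower genes, Slc7a6os, is named for lying opposite Slc7a6 and is not a carrier, and without it 19 of 26 were listed higher. In 9 genes every KO library lay above every WT library, and in 2 every KO library lay below, beside 23.9% and 20.7% of listed genes. Among the 9 were Slc10a3, Slc10a5, Slc35e1, Slc52a3, Slc22a5, Slc6a8, Slc22a23 and Slc35f6, and the 2 were Slc7a5 and Slc25a14. The normalized values are counts divided by size factors, so they also depend on the scaling. With TMM factors of the listed genes in place of the deposited size factors, the median log2 ratio of all listed genes shifted by -0.17, and the split became 4 higher (Slc10a3, Slc10a5, Slc35e1 and Slc22a23) and 4 lower (Slc7a5, Slc25a14, Slc25a26 and Slc7a6os), beside 13.7% and 27.8% of listed genes. The direction of each of the 27 genes stayed as listed under that scaling. TMM takes most genes as unchanged, whereas these factors came only from genes selected for a difference, 58.1% of them higher. This scaling therefore cannot tell whether the deposited one is right.

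**Figure D1:**
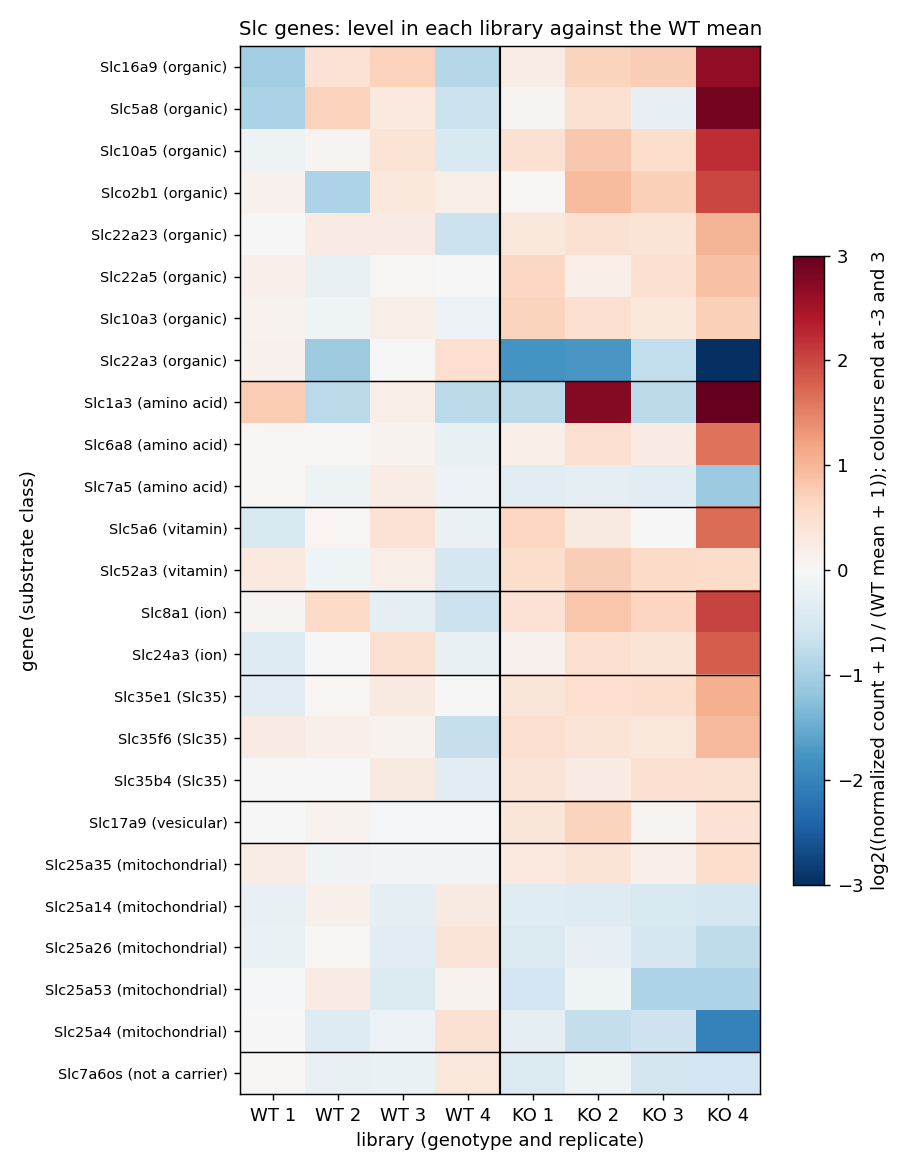
Each row is 1 of 25 of the 27 genes, grouped by substrate class, and each column 1 library, 4 WT and 4 KO. Colour is log2 of the normalized count plus 1 over the WT mean plus 1, red above and blue below the WT mean; KO replicate 4 has the strongest colour in many rows, such as Slc5a8 at 5490.2 and Slc25a4 at 576 normalized counts.

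KO replicate 4 stood apart in these genes. Its value topped the KO group in 16 of the 19 higher genes (84.2%, beside 75.0% of all listed genes higher in KO). It was the bottom value of the KO group in 7 of the 8 lower genes (87.5%, beside 59.3%). The median ratio to the WT mean over the 19 genes was 1.29, 1.40 and 1.33 in KO replicates 1 to 3 and 2.11 in KO replicate 4. Over the 8 lower genes it was 0.739, 0.785 and 0.662 in KO replicates 1 to 3 and 0.516 in KO replicate 4. In 11 genes KO replicate 4 was at least 1.5 times the mean of the other 3 KO libraries, beside 34.7% of listed genes. Among WT libraries, replicate 4 was the lowest in 10 of the 19, beside 40.4% of listed genes higher in KO, and the highest in 6 of the 8, beside 50.8% of those lower. The extremes in these libraries were thus also common over the whole table. Results are therefore also given without KO replicate 4, as an alternative. With it left out the same count of 9 genes was separate above WT and 2 below, beside 26.1% and 22.2% of listed genes, and the median log2 ratio was 0.42 for the 19 genes and -0.46 for the 8.

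Markers of other cells and states also stood apart in that library. The marker lists were chosen with earlier results of these data known, so counts of listed markers are descriptions and no test. Over all genes 7.15% were listed, and 58.1% of listed genes were higher in KO. Of 25 colonocyte markers 6 were listed, all higher in KO, and their summed normalized counts ran from 25368 to 47079.6 in WT, were 51199, 57200.0 and 47810.4 in KO replicates 1 to 3 and 117202 in KO replicate 4. The lowest WT sum, 25368, was that of WT replicate 4. The 6 were the brush border proteins Cdhr2, Cdhr5 and Ceacam20, the protease Mep1a, the steroid enzyme Hsd17b2 and the lectin Lgals4. Lgals4 was the largest part of these sums, at 13988 to 33046 in WT and 32521 to 70224 in KO. Of the 6, Cdhr5 alone was separate between groups. B and plasma cell markers, 12 of 16 listed and all higher, summed to 139 to 324 in WT, 261, 1103 and 427 in KO replicates 1 to 3 and 3540.1 in KO replicate 4. Of the 15 stem cell and proliferation markers 3 were listed, all lower, with sums from 5958 to 8050.2 in WT and 4412 to 6372 in KO, lowest in KO replicate 4. They were the stem cell factor Ascl2 and the cell division genes Top2a and Birc5. The part of these markers, and of those in the next paragraph, in the values of the solute carriers was not tested.

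Of 19 genes taken as proximal colon and small intestine markers 2 were listed, both higher: Lypd8, a secreted antibacterial protein, and Apob, an apolipoprotein. Whether Lypd8 is particular to those parts of the gut was not tested. Their sums, 40365 to 99034 in WT and 103144 to 250167 in KO, were nearly all Lypd8 and highest in KO replicate 4. Lypd8 was separate between groups, with a ratio of means of 1.93, or 1.46 without KO replicate 4. Apob overlapped, at 528 to 1784 in WT and 798 to 6197 in KO, with a ratio of 2.42, or 1.16 without that library. Of 18 enteroendocrine and tuft cell markers 6 were higher (Chgb, Neurod1, Gcg, Trpm5, Lrmp and Chat), summing to 586 to 994 in WT and 1215 to 3698 in KO. Lrmp (299 to 536 in WT, 747 to 1179 in KO) and the barely detected Chat (0 in WT, 0.89 to 39.1 in KO) were separate between groups. Chgb, Neurod1, Gcg and Trpm5 overlapped, with ratios of means of 2.76, 3.88, 2.99 and 2.30. Without KO replicate 4 these were 1.39, 1.31, 1.15 and 1.18. Lrmp was the 1 marker of all lists with an adjusted p below 0.05 in the authors' deposited table (DESeq2). The B and plasma cell genes included Cd79a, Cd79b, Ms4a1, Cd22, Pax5, Cr2, Blk, Fcrla, Pou2af1, Ighm and Ighd. Of 15 myeloid and mast cell markers 4 were lower (Mpo, Fscn1, Mcpt1 and Tpsb2), with sums from 1231 to 2819.6 in WT and from 111 to 955 in KO, lowest in KO replicate 4. Of 14 T cell markers 3 were higher (Cd4, Cd8b1 and Trbc1), at sums of 59.3 to 78.1 in WT and 127 to 159 in KO. Of 10 fibroblast markers Dpt and Mfap5 were higher, of 8 endothelial markers Lyve1, and of 8 smooth muscle markers Myocd. None of the goblet cell (10), neuron and glia (8) or erythroid (6) markers was in the table.

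The largest class was that of carriers of organic anions and cations, carboxylates, bile acids and drugs, with 9 of its 69 RefSeq symbols listed, 7 higher and 2 lower. Slc10a3, an orphan member of the bile acid carrier family, had the smallest p of all 27 genes. It stood at 261, 219.8, 274 and 213 normalized counts in WT replicates 1 to 4 and 386, 341, 301 and 400.2 in KO replicates 1 to 4. All 4 KO libraries lay above all 4 WT libraries, and KO replicate 4 was close to the others. The means were 242 ± 29.9 in WT and 357 ± 45.1 in KO (SD, n = 4 each). The authors' deposited table lists Slc10a3 at a log2 fold change of 0.56 with a DESeq2 adjusted p of 0.43, and a DESeq2 refit gave a standard error of 0.17. That refit saw only the listed genes. Its unadjusted p for Slc10a3 was 0.00108, beside 0.00413 in the authors' DESeq2 result, so this standard error is not that of the deposited fold change. In the coordinates of the table Slc10a3 lies on chromosome X from 72340567 to 72344695, minus strand.

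Slc10a5, another member of that family, was at 117, 138, 174 and 95.1 normalized counts in WT replicates 1 to 4 and 181, 228, 189.5 and 609 in KO replicates 1 to 4. The groups did not overlap, but KO replicate 4 exceeded the mean of the other KO libraries 3.05-fold. The mean KO level was 2.31 times that of WT with it and 1.53 times without it. Slc22a5, the carnitine carrier OCTN2, read 175, 137, 162 and 159.8 normalized counts in WT replicates 1 to 4 and 245, 182, 222 and 291 in KO replicates 1 to 4. Its lowest KO library, replicate 2, lay just above its highest WT library, replicate 1, and the mean KO level was 1.48 times that of WT, or 1.37 times without KO replicate 4. Slc22a23, an orphan of the same family, had 1524, 1807, 1799 and 975 normalized counts in WT replicates 1 to 4 and 1944, 2093, 2029 and 3115 in KO replicates 1 to 4. Its groups were separate, with WT replicate 4 low and KO replicate 4 high, and the ratio of means was 1.5, or 1.32 without KO replicate 4.

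Slc5a8, the sodium-coupled carrier that takes up butyrate and lactate in the colon, showed the largest dependence on 1 library among the well measured genes. It stood at 384, 1201, 915 and 474 normalized counts in WT replicates 1 to 4 and 791, 1024, 632 and 5490.2 in KO replicates 1 to 4. KO replicates 1 to 3 lay within the WT range, and KO replicate 4 was 6.73 times their mean. The means were 744 ± 383 in WT and 1984 ± 2343 in KO (SD, n = 4 each). The authors' deposited table lists Slc5a8 at a log2 fold change of 1.42, with a standard error of 0.71 in the DESeq2 refit. The mean KO level was 2.67 times that of WT with all libraries and 1.10 times without KO replicate 4. Without both libraries numbered 4 it was 0.979 times, so its direction turned, the one gene of the 27 in which it did. The gene lies on chromosome 10 from 93020816 to 93064504, plus strand, in the coordinates of the table.

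Slc16a9, a carrier of the monocarboxylate family, and Slco2b1, which takes up organic anions such as steroid sulfates, were of low abundance. Slc16a9 ranged from 7.78 to 28.3 in WT and 20.2 to 114 in KO, with the upper end set by KO replicate 4 and the other KO libraries at 20.2, 27.9 and 29.4. Slco2b1 ranged from 22.6 to 55.6 in WT and 46.3 to 180.0 in KO, again with KO replicate 4 highest. Without that library the ratio of KO to WT means went from 2.77 to 1.5 for Slc16a9 and from 2.18 to 1.55 for Slco2b1.

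Of the 2 genes of the class listed lower, Slc22a3 (OCT3), a carrier of monoamines and other cations, was at 58.4, 24.7, 53.6 and 74.9 normalized counts in WT replicates 1 to 4 and 14.5, 15.0, 31.1 and 0 in KO replicates 1 to 4. No read was counted in KO replicate 4, and KO replicate 3 lay above WT replicate 2. The authors' deposited table lists Slc22a3 at a log2 fold change of -1.80. Slc22a3 lies on chromosome 17 from 10461868 to 10552843, minus strand, in the coordinates of the table.

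Carriers of amino acids and related solutes had 3 of 62 symbols listed (4.84%, beside 7.20% of all Slc and Slco symbols). Slc6a8, the sodium-coupled creatine carrier, was the most abundant of the 27 genes per length of gene. It stood at 6122, 5974, 6306 and 5045 normalized counts in WT replicates 1 to 4 and 6721, 8198, 6931 and 18268 in KO replicates 1 to 4. The groups did not overlap, the 4 WT libraries lay close together, and KO replicate 4 was 2.51 times the mean of the other KO libraries. The ratio of means was 1.71, or 1.24 without that library, and the means were 5862 ± 561 in WT and 10029.5 ± 5531 in KO (SD, n = 4 each). The authors' deposited table lists Slc6a8 at a log2 fold change of 0.77, with a refit standard error of 0.35. Slc6a8 lies on chromosome X from 71574475 to 71585132, plus strand.

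Slc7a5 (LAT1), the exchanger of large neutral amino acids that is high in many growing cells, was lower in KO at 1336, 1166, 1497 and 1145 normalized counts in WT replicates 1 to 4 and 1026, 1043, 1027 and 590.0 in KO replicates 1 to 4. KO replicates 1 to 3 lay within a narrow range just below the WT libraries, and KO replicate 4 was far lower. The mean KO level was 0.716 times that of WT, or 0.802 times without KO replicate 4. The authors' deposited table lists Slc7a5 at a log2 fold change of -0.48 with a DESeq2 adjusted p of 0.708. Slc1a3 (GLAST), a glutamate carrier best known from glia, was barely detected, at 1.95, 0, 1.01 and 0 normalized counts in WT replicates 1 to 4 and 0, 10.7, 0 and 55.8 in KO replicates 1 to 4. Its WT libraries hold 3 reads in all and 2 KO libraries none, so no fold is given. Most of its signal came from KO replicate 4.

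Among carriers of inorganic ions, protons and bicarbonate, 3 of 62 symbols were listed (4.84%, beside 7.20% of all Slc and Slco symbols). All 3 were higher, beside 58.1% of all listed genes. Of these, 2 are calcium exchangers of low level. Slc8a1 (NCX1) ranged from 13.2 to 31.8 in WT and 28.9 to 89.0 in KO, and Slc24a3 (NCKX3) from 43.8 to 79.9 in WT and 63.6 to 204 in KO, each overlapping between groups with KO replicate 4 highest. Without it the ratios went from 2.25 to 1.6 for Slc8a1 and from 1.84 to 1.27 for Slc24a3.

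Of 28 symbols of vitamin, nucleoside and choline carriers, 2 were listed (7.14%, beside 7.20% of all Slc and Slco symbols). Both were vitamin carriers and both were higher, beside 58.1% of all listed genes. Slc52a3, a riboflavin carrier of the intestinal epithelium, had 505, 377, 472 and 288 normalized counts in WT replicates 1 to 4 and 590.0, 685, 614 and 598 in KO replicates 1 to 4. The KO libraries lay close together and all above WT, and KO replicate 2, not replicate 4, was highest. The ratio of means was 1.51, and 1.53 without KO replicate 4. The authors' deposited table lists Slc52a3 at a log2 fold change of 0.60, with a refit standard error of 0.21 and a DESeq2 adjusted p of 0.549. Slc5a6, which takes up biotin and pantothenate, ranged from 146 to 271 in WT and 200.2 to 639 in KO, with KO replicates 2 and 3 inside the WT range. Its ratio went from 1.74 to 1.25 without KO replicate 4.

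**Figure D2:**
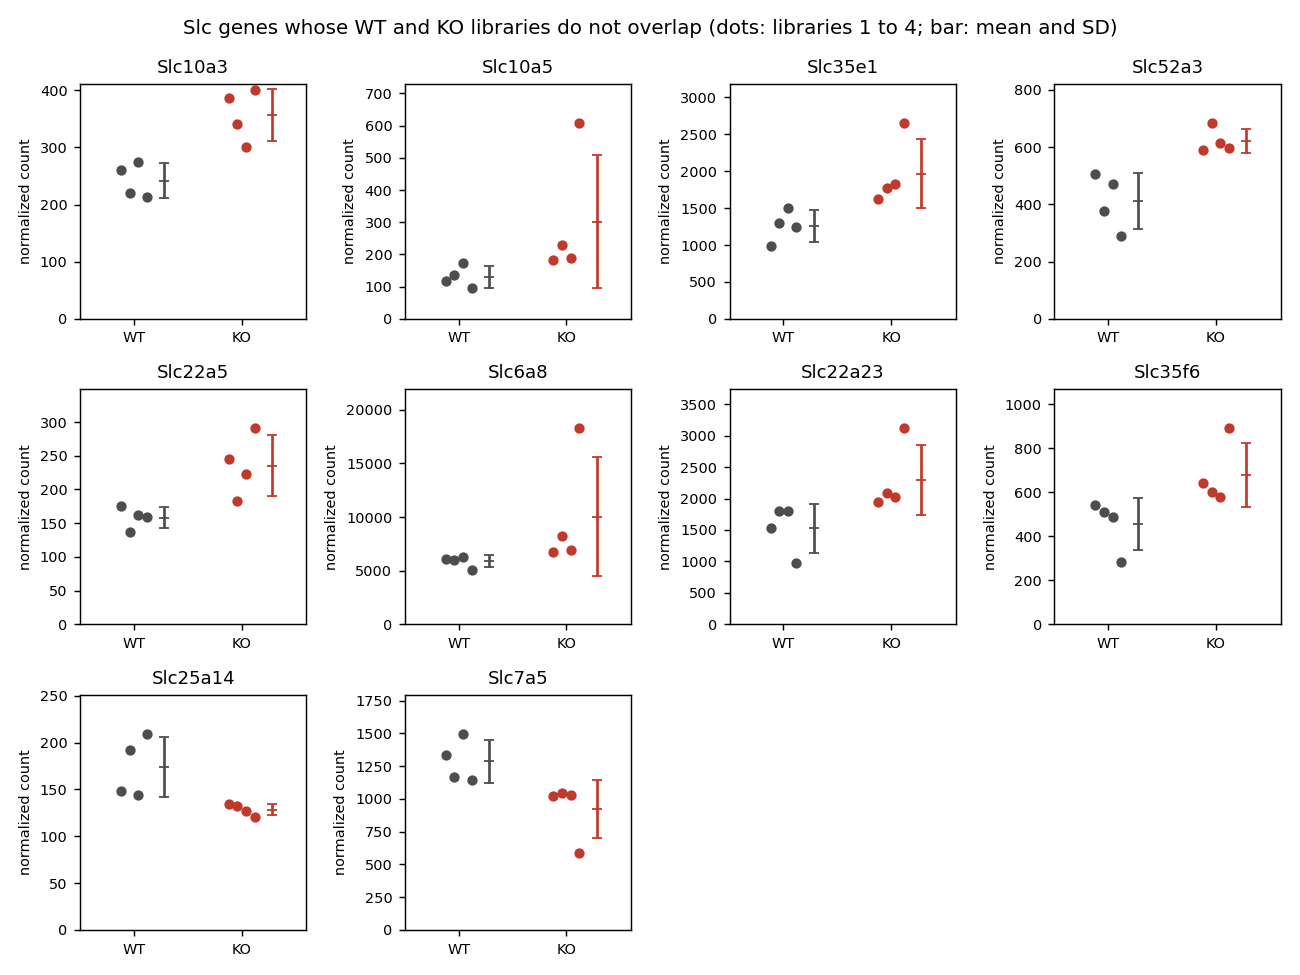
Normalized counts (vertical axes, from 0) of 10 of the 11 genes whose WT and KO libraries do not overlap; each dot is 1 library, in order 1 to 4, with the mean and SD beside them. The first 8 panels lie higher and the last 2 lower in KO, and in Slc6a8, Slc10a5 and Slc7a5 KO replicate 4 lies far from the other KO libraries.

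From the Slc35 family, which carries nucleotide sugars and related compounds, 3 of 27 symbols were in the set (11.1%), not counting Slc35c1. Beside this, 7.20% of all Slc and Slco symbols were listed, with Slc35c1 counted. All 3 were higher, beside 58.1% of all listed genes. Slc35e1, an orphan, had 987, 1303, 1507 and 1240.3 normalized counts in WT replicates 1 to 4 and 1622, 1775, 1819.6 and 2655 in KO replicates 1 to 4. Its groups were separate, with a ratio of means of 1.56, or 1.38 without KO replicate 4. Slc35f6, also an orphan, had 542, 509.6, 487 and 283 normalized counts in WT replicates 1 to 4 and 640.2, 603, 579 and 890.4 in KO replicates 1 to 4. The groups were again separate, with WT replicate 4 low and KO replicate 4 high, and a ratio of 1.49, or 1.33 without KO replicate 4. Slc35b4, which carries UDP-xylose and UDP-N-acetylglucosamine, ranged from 457 to 697 in WT and 685 to 807 in KO, where KO replicate 2 lay below WT replicate 3. Slc17a9, the vesicular nucleotide carrier that loads ATP for release, was the 1 listed symbol of 16 vesicular and neurotransmitter carriers (6.25%). It stood at 951, 1048, 934 and 933 normalized counts in WT replicates 1 to 4 and 1249, 1538, 1027 and 1314 in KO replicates 1 to 4. The WT libraries lay close together, and KO replicate 3 lay just below WT replicate 2. Its ratio was 1.33, and 1.32 without KO replicate 4.

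Mitochondrial carriers of the Slc25 family had 5 of 47 symbols listed (10.6%, beside 7.20% of all Slc and Slco symbols). They were the class with most genes listed lower, 4 of the 5, beside 41.9% of all listed genes. Slc25a4 (ANT1), which exchanges ADP and ATP, was the second most abundant gene of the 27 per length. It stood at 2326, 1799, 2094 and 3225 normalized counts in WT replicates 1 to 4 and 1946, 1436, 1522 and 576 in KO replicates 1 to 4. KO replicate 4 was lowest and WT replicate 4 highest, while KO replicate 1 lay above WT replicate 2. The mean KO level was 0.58 times that of WT, 0.692 times without KO replicate 4 and 0.789 times without both libraries numbered 4. The authors' deposited table lists Slc25a4 at a log2 fold change of -0.79, with a refit standard error of 0.38.

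Slc25a14, a carrier of the uncoupling protein group, was at 149, 192, 145 and 209 normalized counts in WT replicates 1 to 4 and 134, 132, 127 and 120.4 in KO replicates 1 to 4. Its KO libraries lay within a narrow range below all WT libraries, and leaving out KO replicate 4 moved the ratio from 0.739 to 0.754. Slc25a26, which brings S-adenosylmethionine into mitochondria, ranged from 194 to 316 in WT and 143 to 204 in KO, and Slc25a53, an orphan, from 66.7 to 106 in WT and 46.0 to 81.4 in KO. In each KO replicate 2 lay inside the WT range. Slc25a35, an orphan and the one mitochondrial carrier listed higher, ranged from 497 to 634 in WT and 602 to 778 in KO, with WT replicate 1 apart from the other WT libraries. Slc7a6os, the neighbour that is not a carrier, had 1074, 897, 912 and 1322 normalized counts in WT replicates 1 to 4 and 776, 944, 714 and 703 in KO replicates 1 to 4. It lies opposite Slc7a6, and the sources used here do not say whether counting used the strand, so its reads may include those of its neighbour. KO replicate 2 lay above WT replicates 2 and 3, and the ratio of means was 0.746.

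**Figure D3:**
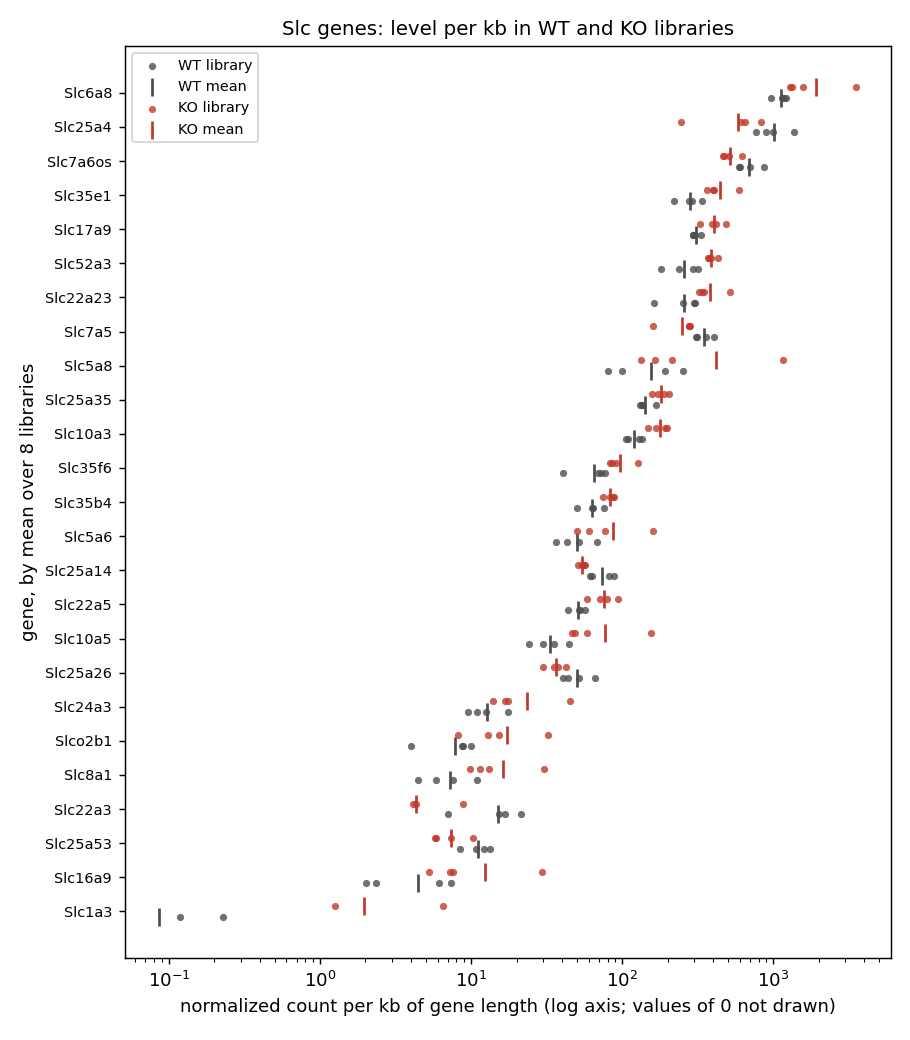
Normalized count per kb of gene length (log axis) for 25 of the 27 genes, ordered by the mean over 8 libraries; grey dots are WT and red dots KO libraries, and bars mark group means. Slc6a8 lies at the top and Slc1a3 at the bottom.

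Levels were compared between genes per kb of the gene length in the table. Slc6a8 was highest, at 1524 normalized counts per kb as the mean of the 8 libraries, followed by Slc25a4 at 793, Slc7a6os at 602, Slc35e1 at 361 and Slc17a9 at 356. The next 3 in order were Slc52a3 at 323, Slc22a23 at 319 and Slc7a5 at 298. At the low end stood Slc22a3 at 9.71, Slc25a53 at 9.22, Slc16a9 at 8.39 and Slc1a3 at 1.02 per kb. Slc35e1 and Slc17a9 are neighbours in that order whose ranges of mean ± SD overlapped. They stood at 282 ± 47.9 against 306 ± 17.4 per kb in WT and 440 ± 104 against 406 ± 66.5 in KO (SD, n = 4). By mean normalized count the 27 genes had a median of 516, beside 361 for listed protein-coding genes, and 26 of them had a mean of at least 10.

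No gene of the sugar carriers (27 symbols), the metal and haem carriers (34) or the lipid and acyl carriers (7) was in the table. Genes absent from it have no value here, so nothing is said of them.

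**Figure D4:**
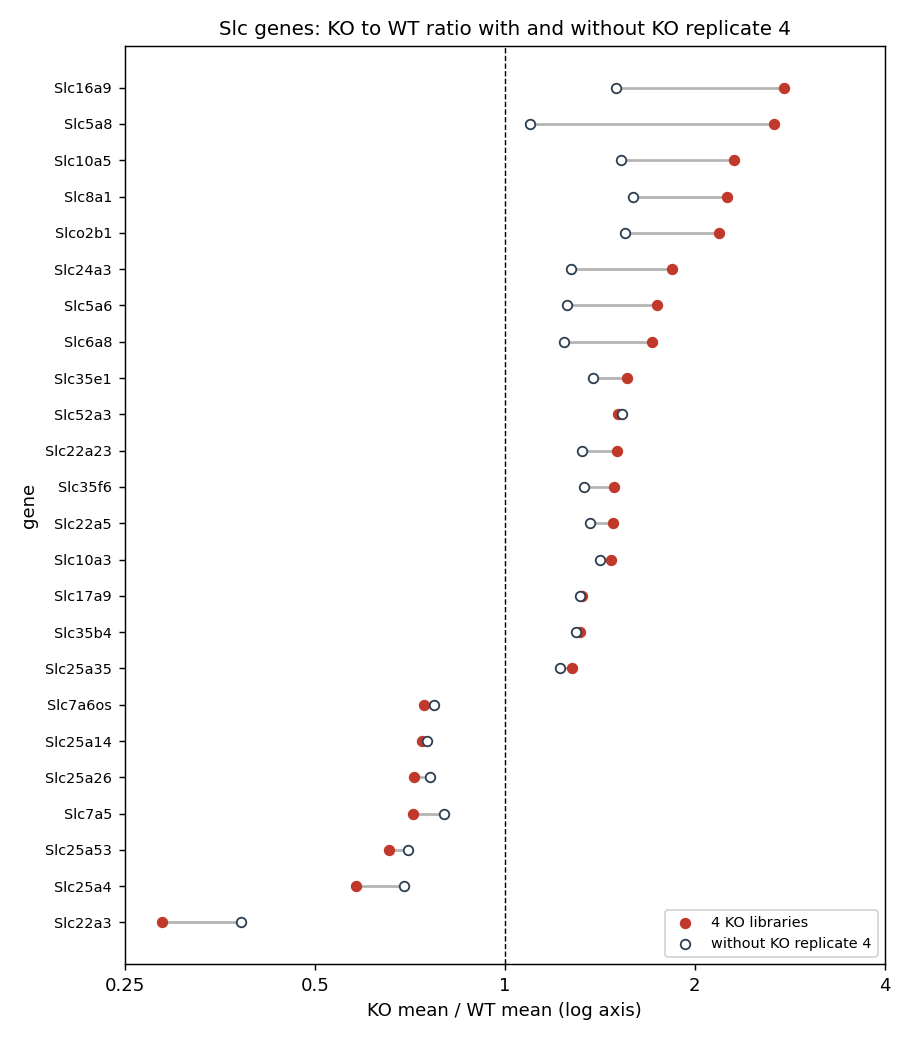
Ratio of the KO mean to the WT mean (log axis) for 24 genes, with 4 KO libraries (red) and without KO replicate 4 (open circles); Slc1a3 is left out, since its WT libraries hold 3 reads. The ratio of Slc5a8 moves from 2.67 to 1.10, and that of Slc52a3 from 1.51 to 1.53.

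The genes differed in how much they rested on KO replicate 4, as the plot of the ratios shows. Leaving it out moved the ratio of means by over 1.5 times in Slc5a8, Slc16a9 and Slc10a5, and by less in the others with a fold given. The genes whose level was most like that of Slc10a3, by Pearson correlation of log2 of the normalized count plus 1 over the 8 libraries, included Slc22a5 (0.882), Slc25a35 (0.869), Slc52a3 (0.854) and Slc35f6 (0.836). These libraries share the difference between groups for which all 27 genes were listed, so the correlations describe that difference too.

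An edgeR quasi-likelihood refit of the reads recovered from the values gave 19 of the 27 genes the listed sign at an unadjusted p under 0.05, 15 higher and 4 lower, beside 77.9% of all listed genes. With TMM factors, which came from the selected genes alone, it put 11 there, 4 higher and 7 lower, beside 62.3%. In neither refit did any of the 27 genes, or any of the 1428 listed genes, reach an adjusted p of 0.05.

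Other genes of epithelial solute transport were taken from 6 lists of 102 symbols, of which 16 were in the table, 14 higher and 2 lower, none with an adjusted p below 0.05. These lists too were chosen with earlier results of these data known, so the counts are descriptions and no test. Beside them, 7.15% of all genes were listed, and 58.1% of all listed genes were higher. The 16 include the 8 transcription factors of the next paragraph. Among ion and water channels 4 of 26 were listed. Ano1, a calcium-activated chloride channel, had 2476, 3160.1, 3737 and 1649 normalized counts in WT replicates 1 to 4 and 4842, 5009.9, 4606 and 5031 in KO replicates 1 to 4, with the groups separate and KO replicate 4 close to the other KO libraries. Scnn1a, the alpha subunit of the epithelial sodium channel, ranged from 373 to 1332 in WT and 1066 to 4312 in KO and Scnn1g, its gamma subunit, from 36.0 to 378 in WT and 11.7 to 81.0 in KO. The ratio of means was 2.34 for Scnn1a, listed higher, and 0.355 for Scnn1g, listed lower. Without KO replicate 4 they were 1.5 and 0.447. The WT mean of Scnn1g rested mostly on WT replicate 3, at 378, with WT replicates 1, 2 and 4 at 65.2, 36.0 and 113. KO replicates 1 to 4 stood at 41.5, 76.1, 81.0 and 11.7, and the ratio of Scnn1g without WT replicate 3 was not worked out. Kcnk5, a potassium channel, went from a ratio of 2.21 to 1.15 without that library.

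Of 22 transcription factors known to act on carrier genes, 8 were listed, all higher. Beside this, 7.15% of all genes were listed, and 58.1% of listed genes were higher. The list was chosen with earlier results of these data known, so its count is a description and no test. Hnf4a, a regulator of epithelial transport genes, was at 5904, 7600.2, 7820.1 and 7532 normalized counts in WT replicates 1 to 4 and 8832, 9590.1, 9197 and 22661 in KO replicates 1 to 4, and its groups were separate. The ratio of means was 1.74, or 1.28 without KO replicate 4. Hnf4g and Nr1i3 were likewise separate, Nr1i3 by a narrow margin at 2.05 to 7.08 in WT and 7.12 to 16.6 in KO, with ratios of 2.22 and 2.94, and 1.48 and 2.70 without KO replicate 4. Nr3c1, Pparg, Ppara and Klf4 overlapped between groups, and the ratio of Klf4 went from 2.44 to 1.18 without that library. Sgk2, a kinase that acts on ion carriers, went from 3.29 to 1.02, and Cldn8, a tight junction protein of the distal colon, from 2.27 to 1.26. Emb, a chaperone of monocarboxylate carriers, was listed lower, at 135 ± 54.4 in WT and 83.1 ± 17.2 in KO (SD, n = 4 each). Car3, a carbonic anhydrase, was the 1 listed of 9 and ranged from 0 to 7.08 in WT and 2.67 to 24.6 in KO. None of 17 ion pump genes was in the table.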

How the data were processed

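RNA of 8 mouse colon tumour samples was extracted with TRIzol and made into strand-marked libraries with an NEBNext Ultra Directional kit, as the labels' protocols state. HISAT2 and DESeq2 are named, without versions, per the submitters' processing notes, with the build GRCh38, a human build, while the gene identifiers belong to the mouse C57BL/6NJ annotation. Coordinates of genes are those of the table and were compared with no other build. The deposited table gives, per the file headers, a signal for each library (gene counts divided by a size factor), the authors' log2 fold change, and the authors' p-values and adjusted p-values. Gene lengths are the table's.

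The design called for the deposited values to be described if the table was a selected list, which it is. Whole reads were recovered from the signal with 1 step per library: 100% of values fell within 0.001 of a whole number. They sum to between 1202677 and 2180787 reads over the listed genes. Libraries of a group differed by more than counting noise (chi-square per degree of freedom at least 19.8). The 19985 genes behind the adjustment were worked out from the deposited adjusted p, unadjusted p and rank of the listed genes, leaving out 18. As alternatives the reads were refitted with edgeR 4.0.16 and DESeq2 1.42.0, and the log2 values with limma 3.58.1, in R 4.3.3, adjusted by Benjamini-Hochberg over 19985 genes; the edgeR code was first tested on simulated reads. Standard errors are from the DESeq2 refit, which draws its spread from the selected genes alone, so they may differ from those behind the deposited p-values.

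The genes and lists were chosen with earlier results of these data known. Substrate classes follow family membership; Slc7a6os and Slc17a9 were reassigned after they were seen. Counts cover all 27 genes, but some genes and markers are not reported by name or drawn here. The others are named, and all 8 values are given for genes whose groups do not overlap, the 8 highest per kb and the smallest p of each class; those of Slc5a8 and Slc22a3, and of Ano1 and Hnf4a from the lists, were added after seeing values.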

Additional observations from a re-analysis of the deposited data

Results flagged for a closer look

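Among the 54 groups of 4 libraries (27 genes in WT and in KO), 10 held 1 library farther from the others than expected of 4 values by Dixon's criterion, which sets the gap to the nearest library against the whole range. Chance gives about 5% of groups if values are normally distributed and groups independent, but these genes share the same libraries. The share of all listed genes under this criterion was not worked out, so whether the count is particular to these genes is not known. KO replicate 4 was at least 1.5 times the mean of the other KO libraries in 34.7% of all listed genes. In 8 of the 10 groups the library that stood apart was KO replicate 4. It was high in Slc5a8, at 5490.2 normalized counts, in Slc6a8, at 18268, in Slc22a23, at 3115, and in Slc10a5, at 609. It was also high in the less abundant Slc24a3, at 204, Slc16a9, at 114, and Slc8a1, at 89.0. It was low in Slc7a5, at 590.0. The other 2 were WT libraries: replicate 2 was high in Slc17a9, at 1048, and replicate 1 was high in Slc25a35, at 634.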

How the results depend on the processing

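All 27 genes had a deposited p under 0.05. Those keeping the listed sign at such a p, each beside the share of all listed genes that did so in the same fit, numbered 19 in the edgeR refit (77.9%), 11 with TMM factors (62.3%), 16 and 15 with limma on log2 of the value plus 1 (71.9%) or plus 0.1 (68.9%), 26 in a DESeq2 refit (94.9%) and 18 of 26 with a mean of at least 10 (75.4%). With 1 library left out the range was 7 (WT replicate 4, 45%) to 19 (KO replicate 3, 64.3%), with 12 without KO replicate 4 (51.9%), 9 without WT replicate 1 (46.2%), 12 without WT replicate 2 (51.8%), 15 without WT replicate 3 (62.7%) or KO replicate 2 (60.9%) and 17 without KO replicate 1 (59.8%). With the replicate number as a block it was 7 (39.1%). The shared numbers are not stated to pair libraries, the correlations of same-numbered deviations ran from -0.295 to 0.098, and 2 of the 8 libraries correlated best with their own number, so the block was not taken as a pairing. The count at an adjusted p below 0.05 was 0 in each of these fits. Over all listed genes it was also 0 in each edgeR and limma fit, and 37 of 1428 in the DESeq2 refit. The fits draw their spread from selected genes and are no independent test. Leaving out 1 library gave 9 to 11 genes separate above WT (26.1% to 32.4% of listed genes) and 2 to 5 below (22.2% to 28.6%), the latter 4 without WT replicate 2 (24.9%) and 5 without WT replicate 3 (28.6%) or KO replicate 2 (26.1%); fewer libraries make separation easier. TMM factors, which came from the selected genes alone, gave 4 above and 4 below, beside 13.7% and 27.8% of listed genes. The median log2 ratio ran from 0.42 to 0.74 for the 19 genes and from -0.68 to -0.46 for the 8 when 1 library was left out. Leaving out both libraries numbered 4 was added after the data were seen: the medians were 0.38 and -0.36, and Slc5a8 turned to a log2 ratio of -0.031. No gene changed direction when 1 library was left out, with TMM factors or with 1 added to each mean. Total library depth was not known, so no smallest detectable level is given.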
